A study of Mus musculus with 10 samples.

Results

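Enzyme genes of the tricarboxylic acid cycle, 9 in all, were followed in mouse skeletal muscle whose fibres kept or had been made to lose AHR, the aryl hydrocarbon receptor. AHR is a transcription factor that is switched on by ligands, among them constituents of tobacco smoke. The genes were picked by name: Cs, Idh3a, Idh3b, Idh3g, Idh2, Ogdh, Suclg1, Fh1 and Mdh2. All 9 were found among the 49315 Ensembl genes of the deposited count table. RNA came from the gastrocnemius of 10 male mice on a C57BL6J background, 5 AHRfl/fl and 5 AHRmKO, and all of them breathed cigarette smoke for 16 weeks, on 5 days per week, in 2 sessions of 1 h per day at 220 ± 80 mg/m3. AHRfl/fl mice carry loxP sites in the Ahr gene (the AHRtm3.1Bra allele) and no Cre. AHRmKO mice carry the same floxed allele and the HSA-MCM transgene, in which the human ACTA1 promoter of skeletal muscle fibres drives the tamoxifen-activated MerCreMer recombinase, so that endothelial, nerve and other cells of the muscle keep the receptor. Smoke began 4 weeks after tamoxifen by the labels and 3 weeks by the main Methods of the study, and harvest was up to 72 h after the last exposure. Ages are not given in the labels, and none of the libraries comes from mice kept in room air, so the comparison is between genotypes under smoke. Some gastrocnemii of the study gave up their red part for respiration measurements, and whether the muscles sequenced here were among them is not stated.

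The tricarboxylic acid cycle burns acetyl groups in the mitochondrial matrix. Citrate synthase joins acetyl-CoA to oxaloacetate, the oxidative decarboxylations by isocitrate dehydrogenase and the oxoglutarate dehydrogenase complex follow, and the later steps regenerate oxaloacetate while NADH and reduced flavin feed the respiratory chain. In skeletal muscle, red oxidative fibres hold more mitochondria than white glycolytic fibres, and citrate synthase is the usual marker of mitochondrial content. Isocitrate is oxidised by distinct enzymes in the matrix. The NAD-linked enzyme is built from the catalytic subunit encoded by Idh3a with the subunits encoded by Idh3b and Idh3g, and the NADP-linked enzyme is encoded by Idh2, which produces matrix NADPH.

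Total counts per mouse were between 30393035 and 37954388. No libraries held the same counts, and the 6 skeletal muscle markers summed to between 55722 and 69057 CPM, counts scaled to the normalised library size. Of 14714 genes with enough counts to be tested, 1 differed between the genotypes at an adjusted p under 0.05 by edgeR's quasi-likelihood test, which is 0.0068% of the genes. It was Esr1, which shares sequence with the MerCreMer transgene. At an unadjusted p under 0.05, edgeR listed 972 genes, or 6.61%. The DESeq2 Wald test called 21 of 10858 genes, or 0.193%, at an adjusted p under 0.05. Ahr itself had between 43 and 110 counts in AHRfl/fl and between 31 and 80 in AHRmKO mice, summed over all its exons. Xist, a transcript of the inactive X chromosome, had between 44 and 75 counts in 5 libraries and at most 3 in the others, while the Y-linked Ddx3y had at least 1852 in every library. Whether those 5 libraries hold some RNA of another animal was not tested. A fit that accounts for Xist is given among the alternatives.

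None of the 9 enzyme genes passed the test of a difference between the genotypes. All 9 passed the filter on low counts, 0 were called by edgeR at an adjusted p under 0.05, against 0.0068% of all genes, 0 of 9 had an unadjusted p under 0.05, against 6.61% of all genes, and DESeq2 called 0 of 9. The groups overlapped for all 9, against 1.4% of all genes whose groups did not. The log2 fold change (AHRmKO against AHRfl/fl) was below 0 for 5 of the genes and above 0 for 4, and 48.5% of all genes were below 0. Its median over the 9 genes was -0.01, beside 0.01 over all genes tested. The genes were well measured, with between 3207 and 33604 counts in a mouse. For the 8 genes other than Idh2 the standard errors were between 0.0616 and 0.0796, and their 95% intervals together spanned -0.25 to 0.23. The plot of fold changes shows these intervals beside those of the other enzymes of the cycle.

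**Figure D1:**
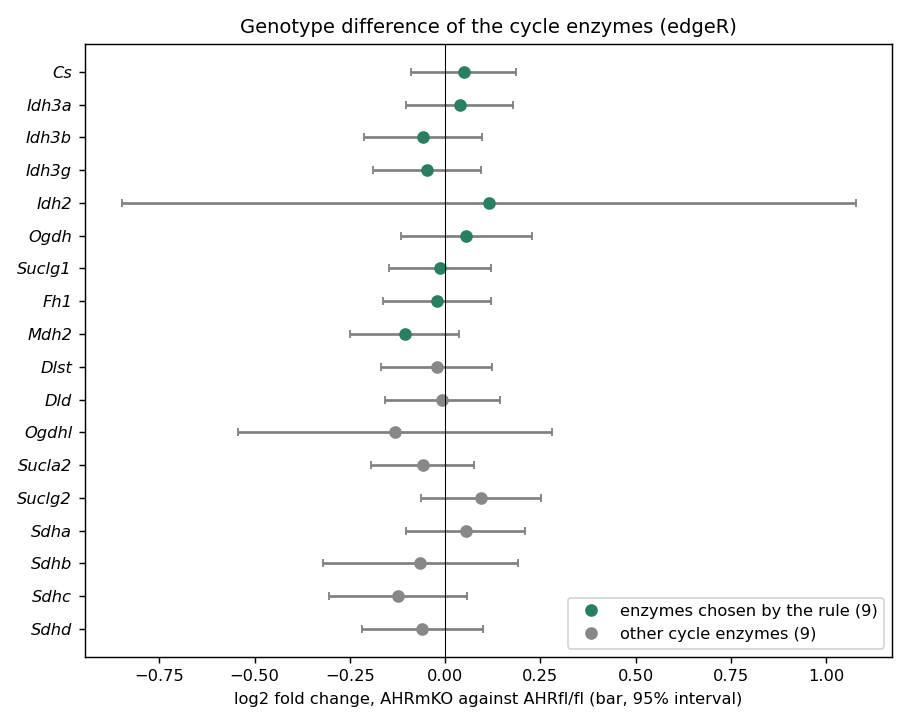
Log2 fold change of 18 cycle genes, AHRmKO against AHRfl/fl (x axis, log2 scale), 1 gene per row. Points are edgeR estimates, green for the 9 genes chosen by name and grey for the 9 other enzymes, and bars are 95% intervals from 5 mice per genotype. Every interval includes 0, and that of Idh2 runs from -0.85 to 1.08.

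As AHR binds DNA, the promoter sequences of the genes were read for its core word, GCGTG (on either strand, CACGC). RefSeq sequences of GRCm38.p6 of 300 bases, from upstream of each start site to shortly after it, were at hand for 8 of the 9 genes, with 13 start sites. Also searched were TGCGCA, the core of nuclear respiratory factor 1, which reads the same on both strands, and AAGGTCA, which reads TGACCTT on the opposite strand, the recognition word of the oestrogen-related receptors. GCGTG and TGCGCA can overlap by their shared letters. GCGTG was found at 6 of the 8 genes (Fh1, Idh2, Idh3g, Mdh2, Ogdh and Suclg1) and at 9 of the 13 start sites, and in 32.4% of 32851 promoters of the same length. TGCGCA was found at Mdh2 and Ogdh and in 7.76% of all promoters, and AAGGTCA at Ogdh and in 4.72%. The windows of the 6 start sites of Ogdh overlap in part and are not independent. A match is a run of letters and not a measured binding site. The sequences of Idh2, which varied most between mice, Mdh2, which had the lowest fold change, and Cs, which holds none of the words, are given 5′ to 3′ with the words in capitals. They lie at chr7:80115301-80115600 (minus strand), chr5:135778399-135778698 (plus strand) and chr10:128337477-128337776 (plus strand).
Idh2: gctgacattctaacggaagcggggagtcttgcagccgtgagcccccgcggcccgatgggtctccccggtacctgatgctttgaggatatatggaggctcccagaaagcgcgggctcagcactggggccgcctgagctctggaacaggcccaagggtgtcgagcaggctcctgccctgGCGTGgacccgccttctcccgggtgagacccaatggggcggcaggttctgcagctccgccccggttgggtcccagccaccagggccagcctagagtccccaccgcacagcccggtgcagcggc
Mdh2: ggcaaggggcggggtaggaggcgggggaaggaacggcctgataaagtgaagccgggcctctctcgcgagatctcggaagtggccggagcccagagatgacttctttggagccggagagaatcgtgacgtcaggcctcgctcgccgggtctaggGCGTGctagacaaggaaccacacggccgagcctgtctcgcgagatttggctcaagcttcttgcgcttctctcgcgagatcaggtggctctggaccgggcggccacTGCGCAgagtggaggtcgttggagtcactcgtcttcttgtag
Cs: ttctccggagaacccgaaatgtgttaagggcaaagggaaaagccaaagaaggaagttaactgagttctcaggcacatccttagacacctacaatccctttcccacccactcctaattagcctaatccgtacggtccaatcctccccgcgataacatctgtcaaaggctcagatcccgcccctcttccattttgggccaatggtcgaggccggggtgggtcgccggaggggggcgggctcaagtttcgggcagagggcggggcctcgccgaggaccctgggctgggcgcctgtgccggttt
The Idh2 window holds GCGTG once, the Mdh2 window holds GCGTG and TGCGCA once each, and neither gene passed the test between the genotypes.

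Citrate synthase makes citrate, the first product of the cycle. Its gene Cs (ENSMUSG00000005683, GRCm38 chromosome 10, 128337734 to 128362479, plus strand) had 716.2, 675.1, 756.6, 780.0 and 728.0 CPM in AHRfl/fl mice 11, 12, 13, 15 and 33. The AHRmKO mice 8, 9, 19, 22 and 34 had 752.4, 785.1, 769.6, 763.0 and 711.2 CPM. Cs was lowest in AHRfl/fl 12 and highest in AHRmKO 9, and the groups overlapped. By edgeR, AHRmKO muscle differed by 0.05 on the log2 scale (95% interval, -0.09 to 0.19; standard error 0.0639, adjusted p = 0.927, two-sided exact permutation test p = 0.294). The highest mouse was 1.16-fold above the lowest.

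The catalytic subunit of the NAD-linked isocitrate dehydrogenase is encoded by Idh3a (ENSMUSG00000032279, chromosome 9, 54586334 to 54604661, plus strand). It had 610.6, 548.0, 594.9, 627.7 and 593.0 CPM in the AHRfl/fl mice, in the same order, and 598.1, 647.7, 627.5, 619.5 and 561.3 CPM in the AHRmKO mice. Again AHRfl/fl 12 was lowest and AHRmKO 9 highest, and the log2 fold change by edgeR was 0.04 (adjusted p = 0.949, standard error 0.0654). The other subunits lay on the other side of 0. Idh3b (ENSMUSG00000027406, chromosome 2, 130279309 to 130284547, minus strand) had between 448.6 and 535.3 CPM in AHRfl/fl and between 419.9 and 510.2 CPM in AHRmKO mice, with a log2 fold change by edgeR of -0.06 (standard error 0.0720, adjusted p = 0.921). Exons annotated to Idh3b overlap exons of Nop56 on the plus strand, and as the strand setting of the count is not stated, reads in the overlap could have come from either gene. Idh3g (ENSMUSG00000002010, chromosome X, 73778963 to 73786897, minus strand) had between 379.1 and 433.0 CPM in AHRfl/fl and between 363.1 and 424.2 CPM in AHRmKO mice, with a log2 fold change by edgeR of -0.05 (standard error 0.0659, adjusted p = 0.931).

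The oxoglutarate dehydrogenase subunit that binds and decarboxylates 2-oxoglutarate is encoded by Ogdh (ENSMUSG00000020456, chromosome 11, 6291633 to 6356642, plus strand). In AHRfl/fl mice 11, 12, 13, 15 and 33 it had 781.5, 705.6, 912.4, 915.1 and 878.3 CPM. The AHRmKO mice lay closer together, at 882.6, 900.3, 867.7, 858.8 and 848.5 CPM in mice 8, 9, 19, 22 and 34. All 5 AHRmKO values fell within the AHRfl/fl range, between the low mice 11 and 12 and the high mice 13 and 15. By edgeR the genotypes differed by 0.06 on the log2 scale (standard error 0.0796, adjusted p = 0.934), and the difference in spread was not tested.

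Succinate-CoA ligase, which makes ATP or GTP, shares the alpha subunit encoded by Suclg1 (ENSMUSG00000052738, chromosome 6, 73248382 to 73276911, plus strand) between its ATP-forming and GTP-forming forms. Suclg1 was the steadiest gene, with between 228.8 and 253.6 CPM in AHRfl/fl and between 219.6 and 251.3 CPM in AHRmKO mice, a log2 fold change by edgeR of -0.01 (standard error 0.0616, adjusted p = 0.983) and a highest mouse 1.15-fold above the lowest. Fumarate hydratase, encoded by Fh1 (ENSMUSG00000026526, chromosome 1, 175600374 to 175625635, minus strand), turns fumarate into malate. Fh1 had between 209.1 and 243.1 CPM in AHRfl/fl and between 204.1 and 236.5 CPM in AHRmKO mice, with a log2 fold change by edgeR of -0.02 (standard error 0.0656, adjusted p = 0.977).

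Mitochondrial malate dehydrogenase, encoded by Mdh2 (ENSMUSG00000019179, chromosome 5, 135778480 to 135790398, plus strand), regenerates oxaloacetate. It had 800.1, 707.5, 795.9, 758.9 and 813.4 CPM in AHRfl/fl mice 11, 12, 13, 15 and 33, and 691.1, 737.6, 763.7, 733.7 and 674.4 CPM in AHRmKO mice 8, 9, 19, 22 and 34. AHRfl/fl 11, 13 and 33 lay above all AHRmKO mice, but AHRfl/fl 12 lay below AHRmKO 9, 19 and 22. The log2 fold change of -0.11 was the lowest of the 9 (standard error 0.0665, 95% interval -0.25 to 0.04), with the smallest adjusted p (0.815 from edgeR) and the smallest exact permutation p (two-sided, 0.0714) among them. The difference did not pass the threshold.

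Idh2 differed between mice far more than between genotypes. Its gene (ENSMUSG00000030541, chromosome 7, 80094846 to 80115392, minus strand) had 170.3, 92.5, 193.8, 377.8 and 358.0 CPM in AHRfl/fl mice 11, 12, 13, 15 and 33. In AHRmKO mice 8, 9, 19, 22 and 34 it had 410.5, 214.3, 237.8, 289.8 and 138.1 CPM. The highest mouse, AHRmKO 8, was 4.44-fold above the lowest, AHRfl/fl 12, and each genotype held high and low mice, with SDs of 0.839 in AHRfl/fl and 0.578 in AHRmKO on the log2 scale. Between the genotypes its log2 fold change by edgeR was 0.11 with a 95% interval from -0.85 to 1.08 (standard error 0.424, adjusted p = 0.980, two-sided exact permutation test p = 0.683). The interval for Idh2 is much wider than those of the other 8 genes. Without AHRfl/fl 12 the log2 fold change was -0.09 and without AHRmKO 8 it was -0.12.

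Over all 10 mice Idh2 had an SD of 0.687 on the log2 CPM scale, which was higher than that of 95.5% of all genes tested. Variation of that size was rare at this level of expression: of the 464 genes with a mean log2 CPM at least that of the lowest of the 9 genes, 3 had a higher SD, and the median SD of these 464 genes was 0.145. The other 8 genes had SDs between 0.0685 and 0.116, higher than those of only 2.1% to 18.6% of all genes, and their highest mouse was between 1.15-fold and 1.30-fold above their lowest. The plot of the genes mouse by mouse shows the contrast.

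**Figure D2:**
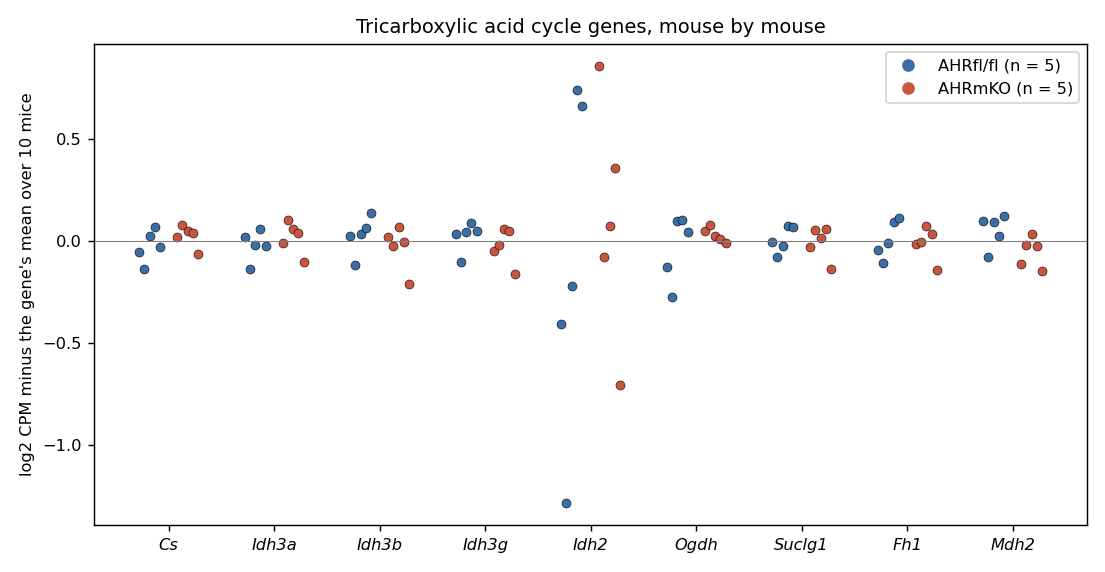
Log2 CPM of each gene minus its own mean over 10 mice (y axis, log2 scale), with 1 point per mouse, AHRfl/fl in blue and AHRmKO in red. Idh2 reaches from -1.29 in AHRfl/fl 12 to 0.86 in AHRmKO 8, while the other 8 genes stay between -0.27 and 0.14.

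A pair of mice lay below the 10-mouse mean of all 9 genes, by amounts that differed between genes. AHRfl/fl 12 lay below the 10-mouse mean of all 9 genes and was the lowest mouse for 4 of them (Cs, Idh3a, Idh2 and Ogdh), with a median deviation of -0.12 on the log2 scale. AHRmKO 34 lay below the mean of all 9 and was the lowest mouse for the other 5 (Idh3b, Idh3g, Suclg1, Fh1 and Mdh2), with a median deviation of -0.14. For Ogdh, however, AHRmKO 34 was close to the mean, with a deviation of -0.0071. The same pair had the lowest shares of mtDNA-encoded counts of the 10 libraries (7.34% and 8.35%), the lowest TMM factors (0.951 and 0.955) and the highest summed CPM of the fast fibre genes (146181 and 139364), and the part of these in the low values was not tested. By the mean log2 CPM of the same fast fibre genes the pair was not high: AHRfl/fl 12 was the lowest of the 10 mice at 12.93 and AHRmKO 34 was at 13.11, with the highest mouse at 13.29. AHRfl/fl 15 and AHRmKO 19 lay above the mean of all 9, with median deviations of 0.07 and 0.06. Low and high mice were thus found in both genotypes. Bulk RNA cannot tell fewer fibres of a type from less RNA of these genes in each fibre.

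Over all 10 mice the 9 genes were positively correlated with each other, and r was lower without AHRfl/fl 12 and AHRmKO 34. All 36 pairs had a positive Pearson r over the 10 mice, from 0.21 (Mdh2 with Ogdh) to 0.91 (Fh1 with Idh3b) in the 28 pairs without Idh2, with a median of 0.66. The 8 pairs with Idh2 lay between 0.25 (Mdh2) and 0.80 (Fh1), with a median of 0.69. Among all pairs of the 464 genes at or above that level of expression, 58.4% had a positive r and the median was 0.16. Without AHRfl/fl 12 and AHRmKO 34, a choice made after the data were seen, 28 of the 36 pairs were above 0 with a median r of 0.21 and a lowest value of -0.52, beside 60.6% and 0.15 for all pairs of the 464 genes. That pair of mice lay below the mean of all 9 genes, so a lower r without it is built in. The 464 genes were not chosen in that way, and the comparison cannot decide how far the correlation rests on the pair. These values are a description over 10 or 8 libraries, and each library shares its normalisation among all genes. Of 3385 genes with a mean log2 CPM of at least 5, those whose profile was closest to the mean profile of the 9 genes were Ndufa10, a subunit of respiratory complex I (r = 0.98), Coq9, needed for coenzyme Q synthesis (r = 0.98), Got1, the cytosolic aspartate aminotransferase of the malate-aspartate shuttle (r = 0.96), Dlst, the succinyltransferase of the oxoglutarate dehydrogenase complex (r = 0.95), and Cyc1, cytochrome c1 of complex III (r = 0.95), over 10 mice each. Without the same pair of mice r with that profile was 0.85 for Ndufa10, Coq9 and Cyc1, 0.81 for Dlst and 0.72 for Got1.

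Idh2 followed the slow fibre genes. The slow-fibre score, the mean log2 CPM of 8 genes of type I fibres (Myh7, Myl2, Myl3, Tnnt1, Tnni1, Tnnc1, Atp2a2 and Tpm3), was 4.37, 2.42, 3.97, 7.79 and 7.11 in AHRfl/fl mice 11, 12, 13, 15 and 33, and 7.97, 3.84, 5.98, 7.54 and 4.92 in AHRmKO mice 8, 9, 19, 22 and 34. Myh7, the slow myosin heavy chain, had between 115 and 24041 counts. The slow fibre genes summed to between 94.8 and 2019 CPM in AHRfl/fl and between 252.4 and 2395 CPM in AHRmKO mice. None of the 8 was at 0 in any mouse, all 8 had a log2 fold change above 0, against 51.5% of all genes, with a median of 0.42, and 0 of 8 were called by edgeR, against 0.0068% of all genes. Across the 10 mice Idh2 and the slow-fibre score had a Pearson r of 0.91 (permutation p = 0.00044, 0.0119 after Benjamini-Hochberg adjustment over 27 relations) and a Spearman rho of 0.87 (permutation p = 0.00206, adjusted 0.0185). Without AHRfl/fl 12 and AHRmKO 8, whose scores lay farthest from the median, r was 0.82. Within AHRfl/fl mice r was 0.97, and within AHRmKO mice it was 0.79. With the score as a covariate in the edgeR fit, the log2 fold change of Idh2 was -0.06 and its standard error fell to 0.189 from 0.424 (adjusted p = 0.965).

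**Figure D3:**
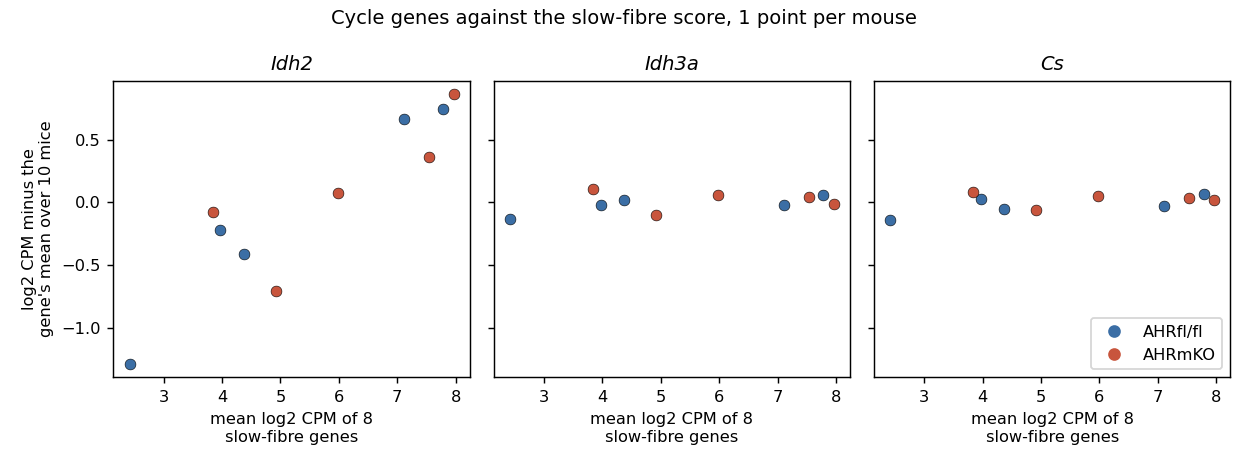
Log2 CPM of Idh2, Idh3a and Cs minus the gene's mean over 10 mice (y axis, log2 scale) against the slow-fibre score (x axis, mean log2 CPM of 8 slow fibre genes), with 1 point per mouse, AHRfl/fl in blue and AHRmKO in red. Idh2 rises with the score in both genotypes (r = 0.91), while r was 0.38 for Idh3a and 0.50 for Cs.

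No other gene of the 9 was tied to the slow-fibre score by the test. Their r lay between 0.03 (Mdh2) and 0.65 (Fh1), with adjusted permutation p between 0.133 and 0.978. Within AHRfl/fl mice r was as high for Suclg1 (0.99) and Fh1 (0.97) as for Idh2, and within AHRmKO mice it was 0.11 and 0.33. For deviations from the genotype means r was 0.71 for Fh1 and 0.54 for Suclg1, beside 0.91 for Idh2. Whether r differs between Idh2 and the others was not tested. Lists of markers of non-muscle cells were also compared with Idh2, after the data were seen. Here the log2 of the summed CPM of a list was used, and not the mean log2 CPM as in the slow-fibre score. Idh2 had r = 0.72 with the summed CPM of 5 endothelial genes (permutation p = 0.0192, adjusted 0.115 over 6 lists), 0.65 with adipocyte, 0.61 with fibroblast, 0.51 with macrophage, 0.46 with erythroid and -0.04 with Schwann cell genes, and no list passed the adjustment. The endothelial genes summed to between 116.2 and 193.7 CPM in AHRfl/fl and between 127.5 and 215.6 CPM in AHRmKO mice, a 1.86-fold range over mice. All 5 had counts in every mouse. The part of these cells in the level of Idh2 was not tested.

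The 5 genes whose profile was closest to Idh2, listed after the values were seen, were Fxyd6, a regulator of the sodium pump (r = 0.99), Bdh1 and Oxct1, both enzymes of ketone body use (r = 0.99 each), Ldhb, the heart form subunit of lactate dehydrogenase (r = 0.99), and Pcp4l1 (r = 0.98), over 10 mice each. Their SDs on the log2 scale were 0.911 for Fxyd6, 0.798 for Bdh1, 1.04 for Ldhb, 0.290 for Oxct1 and 0.601 for Pcp4l1. Like Idh2, none of the 5 was called between the genotypes, with adjusted p from edgeR between 0.939 and 0.999.

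A wider mitochondrial measure gave further relations. The mean log2 CPM of 70 nuclear genes of respiratory complexes I, III, IV and V was related to Idh3g (r = 0.84, permutation p = 0.00243, adjusted 0.0219), Idh3b (r = 0.80, p = 0.00433, adjusted 0.0234), Fh1 (r = 0.79, p = 0.00706, adjusted 0.0318) and Mdh2 (r = 0.76, p = 0.0114, adjusted 0.0442). By ranks the relation passed for Idh3b (rho = 0.92, permutation p = 0.00061, adjusted 0.0165) and Idh3g (rho = 0.87, p = 0.00181, adjusted 0.0185), and not for Mdh2 (rho = 0.79, p = 0.00798, adjusted 0.0539) or Fh1 (rho = 0.71, p = 0.0266, adjusted 0.12). Without AHRmKO 34 and AHRmKO 9, the mice farthest from the median, r was 0.74 for Idh3g, 0.63 for Idh3b, 0.75 for Fh1 and 0.68 for Mdh2. The values within AHRfl/fl and within AHRmKO mice were 0.75 and 0.89 for Idh3g, 0.86 and 0.78 for Idh3b, 0.98 and 0.88 for Fh1, and 0.49 and 0.83 for Mdh2. Suclg1 (r = 0.63, adjusted 0.144), Idh2 (r = 0.37), Idh3a (r = 0.31), Cs (r = 0.20) and Ogdh (r = 0.10) did not pass. Within AHRfl/fl and within AHRmKO mice r was 0.98 and 0.57 for Suclg1, 0.96 and 0.34 for Idh2, 0.63 and 0.53 for Idh3a, 0.63 and 0.53 for Cs, and 0.70 and -0.07 for Ogdh. For deviations from the genotype means r was 0.67 for Suclg1, 0.53 for Idh2, 0.54 for Idh3a, 0.50 for Cs and 0.29 for Ogdh, all above the r over all 10 mice.

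The mean log2 CPM of 8 fast fibre genes, in which the type IIa myosin gene Myh2 varied most (SD 1.13 on the log2 scale), was related to Cs (r = 0.86, permutation p = 0.00149, adjusted 0.0201) and Ogdh (r = 0.84, permutation p = 0.00379, adjusted 0.0234). By ranks neither passed (rho = 0.72 for Cs, permutation p = 0.0232, adjusted 0.12, and rho = 0.62 for Ogdh, p = 0.0593, adjusted 0.229). Without AHRfl/fl 12 and AHRfl/fl 11, r was 0.64 for Cs and 0.22 for Ogdh. The relation of Ogdh rests on these mice, and within AHRmKO mice its r was -0.03. For Cs, r was 0.96 within AHRfl/fl and 0.50 within AHRmKO mice. The list behaves differently when its CPM are summed, so that its most abundant genes dominate: the log2 of the sum had r = -0.86 with Idh2 (permutation p = 0.00143, chosen after the data were seen), whereas the mean log2 CPM had r = 0.66 (permutation p = 0.0358, adjusted 0.121). Of the 27 relations, 7 passed by Pearson's r and 3 by Spearman's rho.

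Levels were compared between genes as RPKM, CPM divided by the summed exon length of the gene in kilobases. Mdh2 had the highest level of the 9, with 217.6 ± 12.03 RPKM in AHRfl/fl and 202.2 ± 10.2 RPKM in AHRmKO mice (SD, n = 5). Ogdh had 153.7 ± 16.9 and 159.7 ± 3.73 RPKM, Idh3g 153.2 ± 7.55 and 148.2 ± 9.16 RPKM, and Idh3b 145.2 ± 9.16 and 139.5 ± 10.01 RPKM in AHRfl/fl and AHRmKO mice. The ranges of Idh3g overlapped those of Ogdh and Idh3b, whereas in AHRmKO mice all 5 values of Ogdh were above those of Idh3b, and no test of this was made. Cs followed with 126.5 ± 6.93 and 130.9 ± 4.82 RPKM and Idh3a with 117.3 ± 5.85 and 120.4 ± 6.49 RPKM, whose ranges overlapped. Idh2 had 92.1 ± 48.0 and 99.7 ± 39.1 RPKM and ran from 35.7 to 158.6 RPKM, so that it was below Suclg1 in the lowest mouse and above Idh3a in the highest. Fh1 had 66.9 ± 4.26 and 65.9 ± 3.58 RPKM, and Suclg1 52.5 ± 2.30 and 52.0 ± 2.83 RPKM. The order depends on the length used. By the longest transcript of any kind, Mdh2 stayed highest at 465.5 RPKM, as a mean of 10 mice. Next came Cs (247.7), Idh3b (237.7), Idh3a (233.7), Ogdh (207.2), Idh3g (195.7), Idh2 (138.7), Suclg1 (87.2) and Fh1 (85.5). By the longest protein-coding transcript, a length not planned in advance, Mdh2 was at 513.5 RPKM. It was followed by Idh3g (305.8), Idh3b (301.4), Cs (254.2), Idh3a (233.7), Ogdh (207.2), Suclg1 (158.9), Idh2 (142.3) and Fh1 (85.5), as means of 10 mice.

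**Figure D4:**
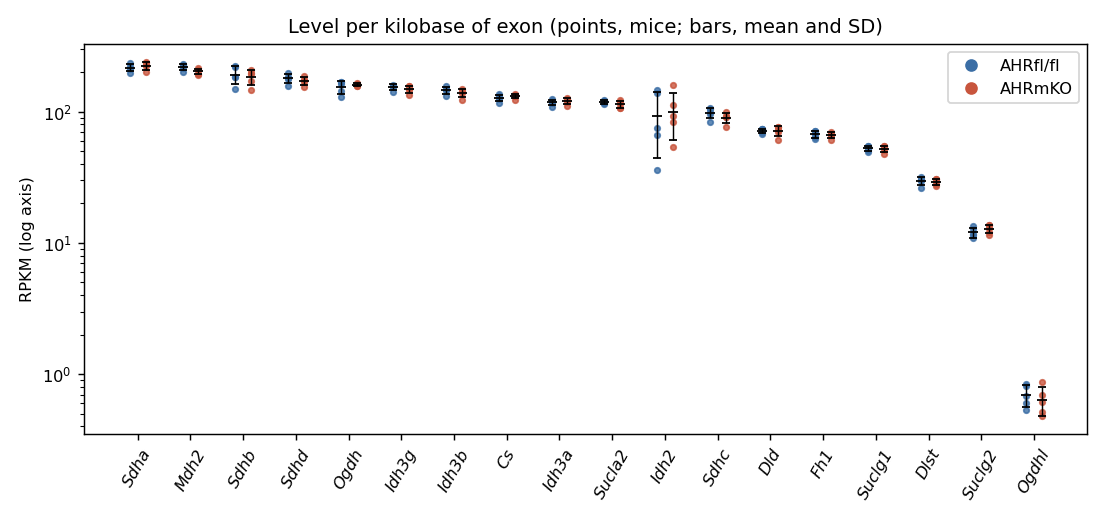
Level of 18 cycle genes in RPKM (y axis, log axis), sorted by the mean over 10 mice. Points are mice, AHRfl/fl in blue and AHRmKO in red, and black bars are the mean and SD of 5 mice. Sdha and Mdh2 are highest, at 215.8 and 217.6 RPKM in AHRfl/fl mice, Ogdhl is lowest, at 0.697 RPKM, and Idh2 has the widest bars.

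Ratios of RPKM between enzymes do not depend on the library scaling, and 11 of them were compared after the data were seen. Their size depends on the gene lengths used, as the order of the levels does, but the test between genotypes does not. Idh3a against Idh3g was 0.766 ± 0.0127 in AHRfl/fl and 0.813 ± 0.0313 in AHRmKO mice (SD, n = 5), and the groups did not overlap (p = 0.00794 by an exact two-sided permutation test, which is the lowest that 252 assignments allow). Mdh2 against Cs was 1.72 ± 0.0971 and 1.54 ± 0.0445 (exact permutation p = 0.0159). After adjustment over the 11 ratios both were at 0.0873 and did not pass. Among all 153 ratios between 2 of the 18 cycle enzymes, 4 did not overlap between the genotypes, or 2.61%: Cs against Idh3g, Idh3a against Idh3g, Mdh2 against Sdha and Suclg2 against Sdhc. Idh3b against Idh3g, the other subunits of the NAD-linked enzyme, was 0.948 ± 0.0315 and 0.941 ± 0.0332 (exact permutation p = 0.69). The NADP-linked against the NAD-linked enzyme, Idh2 against Idh3a, ran from 0.331 in AHRfl/fl 12 to 1.35 in AHRmKO 8.

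Another 9 enzymes and subunits of the cycle were compared in the same fit. All 9 were tested, 0 had an adjusted p under 0.05 by edgeR, against 0.0068% of all genes, 0 had an unadjusted p under 0.05, against 6.61%, and 7 had a log2 fold change below 0 and 2 above, against 48.5% of all genes below 0, with a median of -0.06. Dlst and Dld, the other subunits of the oxoglutarate dehydrogenase complex, were at -0.02 and -0.01, and Ogdhl, a relative of Ogdh with only 70 to 138 counts, was at -0.13. The beta subunits of succinate-CoA ligase decide its nucleotide. On the RPKM scale the ATP-forming Sucla2 was 9.93 ± 0.883 times the GTP-forming Suclg2 in AHRfl/fl and 8.90 ± 0.574 times in AHRmKO mice (SD, n = 5). The two-sided exact permutation p was 0.0714, or 0.196 after adjustment over the 11 ratios compared after the data were seen. The size of the ratio depends on the length used. As means of 10 mice, Sucla2 and Suclg2 had 116.0 and 12.4 RPKM by summed exon length. By the longest transcript they had 207.6 and 17.0 RPKM. The log2 fold changes were -0.06 for Sucla2 and 0.09 for Suclg2.

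Succinate dehydrogenase belongs to both the cycle and the respiratory chain, as complex II. Its flavin subunit Sdha had a log2 fold change of 0.05 and its iron-sulfur subunit Sdhb of -0.06. The membrane subunits Sdhc and Sdhd were at -0.12 and -0.06. Sdhb had 408.4, 332.5, 412.9, 486.0 and 499.0 CPM in AHRfl/fl mice 11, 12, 13, 15 and 33 and 440.1, 383.8, 433.1, 461.1 and 326.9 CPM in AHRmKO mice 8, 9, 19, 22 and 34. Its highest mouse was 1.53-fold above its lowest, against 1.21-fold for Sdha, 1.40-fold for Sdhc and 1.28-fold for Sdhd. Sdhb was lowest in AHRmKO 34 and AHRfl/fl 12, the pair that lay below the mean of all 9 genes. Adjusted p from edgeR was between 0.826 and 0.994 for these 9 genes.

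Enzymes that feed or drain the cycle were compared as a further list. Of 16 such genes tested, 0 had an adjusted p under 0.05, against 0.0068% of all genes. An unadjusted p under 0.05 was found for 2, against 6.61% of all genes. The log2 fold change was below 0 for 8, against 48.5% of all genes, and above 0 for 8, with a median of 0.03. Both genes with an unadjusted p under 0.05 had higher values in AHRmKO mice, beside 475 higher of the 972 among all genes. One was Pcx, pyruvate carboxylase, which refills oxaloacetate. Pcx had 67.5, 92.7, 74.4, 68.8 and 72.2 CPM in AHRfl/fl mice 11, 12, 13, 15 and 33 and 95.7, 91.2, 83.1, 90.9 and 105.0 CPM in AHRmKO mice 8, 9, 19, 22 and 34. The groups overlapped through AHRfl/fl 12, with a log2 fold change by edgeR of 0.31 (standard error 0.0915, adjusted p = 0.606, two-sided exact permutation test p = 0.0317). The other was D2hgdh, which oxidises D-2-hydroxyglutarate to 2-oxoglutarate, with a log2 fold change by edgeR of 0.21 (standard error 0.0799, adjusted p = 0.665, exact permutation p = 0.0238). The ends of the list were both forms of phosphoenolpyruvate carboxykinase, which drains oxaloacetate. The cytosolic Pck1 was at 0.80 (standard error 0.793, adjusted p = 0.891 from edgeR) with 14 to 176 counts, and its value turns on single mice: it was 1.72 without AHRfl/fl 11, whose level stands apart, and 0.35 without AHRmKO 9, with no call in either fit. The mitochondrial Pck2 was at -0.34 (standard error 0.242, edgeR adjusted p = 0.837) with 55 to 172 counts. With each mouse left out, Pck2 ran from -0.495 to -0.193.

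Next to the cycle, the 4 genes of the pyruvate dehydrogenase complex (Pdha1, Pdhb, Dlat and Pdhx), which supplies acetyl-CoA, gave 0 calls by edgeR, against 0.0068% of all genes, and a median log2 fold change of 0.00, with 2 below 0, against 48.5% of all genes, and 2 above. Of the 70 nuclear genes of complexes I, III, IV and V, 0 were called at an adjusted p under 0.05 by edgeR, against 0.0068% of all genes. An unadjusted p under 0.05 was found for 7, against 6.61% of all genes. All 7 were lower in AHRmKO mice, beside 497 lower of the 972 among all genes. Of the 70, 67 had a log2 fold change below 0, against 48.5% of all genes, with a median of -0.10. The 70 genes come from the same 10 libraries and are not independent of each other. Their mean log2 CPM overlapped between the genotypes, from 8.07 to 8.20 in AHRfl/fl and from 7.92 to 8.20 in AHRmKO mice. AHRmKO 19 was the highest of all mice. The difference between these genes and those of the cycle was not tested.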

How the data were processed

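RNA from the gastrocnemius of 5 AHRfl/fl and 5 AHRmKO mice was sequenced as poly(A)-selected paired-end libraries. The authors used Trimmomatic 0.36 for trimming, STAR 2.5.2b for mapping to GRCm38 (versions from the submitters' processing notes) and featureCounts for counting uniquely mapped exonic reads of each gene, and they deposited the raw counts, neither normalized nor pooled. The Ensembl release and strand setting are not given in the sources used here. Each mouse was taken as 1 replicate.

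Gene names, positions and lengths were read from GENCODE M21 (GRCm38), in which 49056 of the 49315 identifiers were found. The counts were filtered with filterByExpr of edgeR 4.0.16 in R 4.3.3 (minimum count 10, minimum total count 15), libraries were scaled by TMM, and genotypes were compared by the robust quasi-likelihood test with Benjamini-Hochberg adjustment over 14714 genes. CPM and RPKM use the TMM-scaled library, and log2 CPM a prior count of 2. For single genes and ratios, exact permutation tests (two-sided) used all 252 assignments (smallest p 0.00794), and relations across mice used 100000 permutations in SciPy 1.17.1. The fits were tested on simulated data. Alternatives included limma-voom (limma 3.58.1), the Wald test of DESeq2 1.42.0, other scaling and filters, a slow-fibre covariate and leaving out each mouse. Reads carry no molecular identifiers, and the floor of 3 counts was between 0.0788 and 0.0927 CPM, which covers counting error only.

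The genes and gene lists were chosen with earlier results of these data known. Named are the 9 genes, 9 other cycle enzymes (1 more on the list is not reported here), side reactions with the largest and smallest fold change (none was called), and the 5 genes most like the mean profile. Pcx, D2hgdh and the genes most like Idh2 were named after their values were seen.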

Additional observations from a re-analysis of the deposited data

Results flagged for a closer look

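One gene stood apart in a single mouse. Pck1, the cytosolic phosphoenolpyruvate carboxykinase, was high in AHRfl/fl 11, where its gap to the nearest other AHRfl/fl mouse was 0.8585 of the range of log2 CPM in that group, above the 95% critical value of 0.71 for 5 samples. It had 3.78 CPM there and between 0.587 and 0.772 CPM in the other AHRfl/fl mice, whereas the AHRmKO mice ran from 0.419 to 4.78 CPM. In all, 44 groups of 5 mice over 22 genes were examined, and chance alone would mark about 1 in 20, or 2.2. None of the 9 cycle genes was marked in either genotype.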

How the results depend on the processing

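The study describes the AHRfl/fl mice as littermates without Cre, but the labels give no litter. An analysis paired by litter was therefore not possible. No member of the cycle, none of the 9 other enzymes and none of the 16 side reactions was called under any of the 10 other settings or with any of the 10 mice left out, and the lowest adjusted p of one of the 9 genes was 0.676. The count of all genes called was 1 with edgeR, 21 with DESeq2, 5 with no filter beyond 1 count, 2 with a slow-fibre covariate, and between 1 and 6 with each mouse left out (6 without AHRmKO 34). Of 180 values of the 9 genes, 11 changed sign, all of them small against their standard errors. With the slow-fibre covariate Idh2 was at -0.0605, and with a covariate for Xist counts, added after seeing the data, Idh2 was at 0.31, 0.11 without it, and again not called, Suclg1 at 0.0067 and Dld at 0.0028. With each mouse left out, values that changed sign ran from -0.12 to 0.34 for Idh2, -0.0012 to 0.0891 for Ogdh, -0.0347 to 0.0170 for Suclg1, -0.0495 to 0.0106 for Fh1, -0.0660 to 0.0029 for Dlst, -0.0326 to 0.0432 for Dld and -0.14 to 0.0059 for Sdhb. Other values kept their sign but moved in size. They ran from 0.0205 to 0.0732 for Cs, 0.0093 to 0.0670 for Idh3a, -0.0946 to -0.0161 for Idh3b and -0.0787 to -0.0149 for Idh3g. The ranges were -0.274 to -0.0446 for Ogdhl, -0.176 to -0.0712 for Sdhc and -0.105 to -0.0225 for Sdhd. Those of Sdha, Sucla2 and Suclg2 were 0.0236 to 0.0932, -0.0835 to -0.0359 and 0.0573 to 0.136. The median of the 9 genes lay between -0.05 and 0.02. The correlation of Mdh2 with the fast fibre score was 0.40 for deviations from the genotype means and -0.0012 otherwise. The median r between pairs of the 9 genes was 0.67, and 0.21 without AHRfl/fl 12 and AHRmKO 34, added after seeing the data. For these changes the cause was not tested.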
